A study of Mus musculus with 4 samples.

Results

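Transcripts of the Gadd45, Btg and Tob growth arrest genes were compared between mouse bone marrow cultures flown in space and cultures kept on the ground. The genes were chosen by family membership, with earlier results of these data known. They were Gadd45a, Gadd45b, Gadd45g, Btg1, Btg2, Btg3, Tob1 and Tob2, by every probe set of the arrays that the platform annotation gives to one of these symbols alone. This gave 17 of 45037 probe sets and 7 of the 8 genes, 5 probe sets for 3 Gadd45 genes and 12 for 4 Btg and Tob genes. The annotation pairs Btg3 with another gene on its probe set, so Btg3 was not analysed here.

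The Gadd45 proteins are small nuclear proteins made in response to DNA damage, cytokines and other stresses. They bind and activate the kinase Map3k4, which stands above the p38 and JNK kinases, and bind the cell cycle proteins Pcna, Cdkn1a and Cdk1. Gadd45b was found as a gene induced early when myeloid leukaemia cells differentiate. The Btg and Tob proteins share a domain that binds the deadenylase subunits Cnot7 and Cnot8 of the CCR4-NOT complex, which shortens the poly(A) tails of messenger RNAs, and slow the passage from G1 to S phase.

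All cultures were C57BL/6 bone marrow cells, pooled from 21 adult mice over 8 weeks old of unstated sex, freed of red cells and grown at 37 °C in 1.5 µg/ml macrophage colony-stimulating factor (M-CSF), which drives marrow progenitors towards macrophages. The space flight group flew on a shuttle and the ground control group stayed behind in the same kind of sealed glass barrel with the same temperature and feeding profile, fed on culture day 6 and lysed on culture day 15, day 14 of the flight. Each of the 4 arrays, 2 per group, held amplified RNA of a pool of 2 barrels. The pools were chosen for arrays by the quality of their RNA. Replicates were separate barrels from one marrow pool, so p-values measure the spread between barrels and arrays and not between animals.

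The stretches before the start sites are shown for the 3 genes with the largest differences below, Btg2, Gadd45b and Tob1. Each is the 250 bases before the start in RefSeq on build GRCm38.p6, at chr1:134079156-134079405 on the minus strand for Btg2, chr10:80929841-80930090 on the plus strand for Gadd45b and chr11:94211204-94211453 on the plus strand for Tob1. Capitals mark matches on either strand to 9 short motifs: the TATA box TATAAA, the CCAAT box CCAAT, the GC box GGGCGG, the E box CACGTG, the cyclic AMP response half-site TGACG, the AP-1 site TGANTCA, the serum response CArG box, the p53 half-site and the NF-kB site.
Btg2: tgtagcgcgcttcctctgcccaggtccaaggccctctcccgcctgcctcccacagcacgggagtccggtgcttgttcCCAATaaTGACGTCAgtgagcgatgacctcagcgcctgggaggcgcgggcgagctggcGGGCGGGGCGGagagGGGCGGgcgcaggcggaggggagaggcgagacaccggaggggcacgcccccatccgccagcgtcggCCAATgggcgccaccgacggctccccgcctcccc
Gadd45b: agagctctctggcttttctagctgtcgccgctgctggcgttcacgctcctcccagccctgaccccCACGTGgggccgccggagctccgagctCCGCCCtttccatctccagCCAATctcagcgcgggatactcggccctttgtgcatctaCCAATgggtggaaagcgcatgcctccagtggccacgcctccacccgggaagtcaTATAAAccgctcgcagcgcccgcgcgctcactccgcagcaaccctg
Tob1: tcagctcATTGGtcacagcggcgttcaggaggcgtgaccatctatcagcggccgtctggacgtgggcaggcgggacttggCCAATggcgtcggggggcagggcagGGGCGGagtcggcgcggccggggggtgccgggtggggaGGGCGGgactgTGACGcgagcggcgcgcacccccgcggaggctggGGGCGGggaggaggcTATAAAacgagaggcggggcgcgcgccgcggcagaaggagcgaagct
Of the 7 genes, 4 held a TATA box in this window, against 12.4% of 32841 promoters in the table. Both Gadd45b, with its match at bases −46 to −41 from the start, and Tob1, at −47 to −42, were among the 4, with Gadd45g and Btg1, and Btg2 was not. A CCAAT box stood before 6 of the 7 (33.9% of promoters) and a GC box before 6 (32.7%). The E box stood before Gadd45b and Gadd45g (6.02% of promoters), and the cyclic AMP half-site before Btg1, Btg2 and Tob1 (17.8%). In Btg2 the pair of half-sites at bases −166 to −159 overlap on opposite strands, and of its GC boxes the pair at −115 to −105 share a base. The p53 half-site was matched before Gadd45a (7.13% of promoters), and the AP-1, CArG and NF-kB letters were in none of the 7 windows (6.75%, 1.47% and 7.25% of promoters). A match is a description of letters and not a binding site.

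Values are normalized log2 intensities, log2(intensity + 16) brought to one distribution over the arrays. Each difference is the space flight mean less the ground control mean, with its standard error (SE) from limma, and understates the change of dim genes. RNA was degraded on all arrays, with an integrity number of 3 in the labels. The ratio of 3′ to 5′ control signal for Gapdh was 15.2 on space flight array 2 and 3.33 to 4.13 on the 3 other arrays. For Actb it was 4.91 on that array and 2.30 to 3.08 on the others. For the transferrin receptor it went the other way, at 3.47 on that array and 4.96 to 7.84 on the others. Replicates differed from each other with an SD over genes of 0.70 for space flight and 0.47 for ground control. The part of RNA quality in the results was not tested. The macrophage markers Csf1r and Lyz2 had group means of 14.89 and 15.25 in space flight and 15.26 and 15.31 in ground control on their brightest probe sets. Other probe sets of Csf1r above the median of all probe sets gave differences of −1.20 and −0.95. Of the T and NK cell markers on the arrays, 5 of 7 stood below the median of all probe sets, 6.40, on every array.

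Btg2, Gadd45b and Tob1 had higher transcript levels in the space flight cultures, by 3.04-fold, 2.96-fold and 2.12-fold on their brightest probe sets, and Gadd45g and Gadd45a by 1.52-fold and 1.36-fold. The normalized values of Btg1 and Tob2 overlapped between the groups. Of 7 genes, 0 passed limma's test at an adjusted p under 0.05, where 0.0628% of 11141 measured genes did (7 genes), and 4 had an unadjusted p under 0.05, all higher in space flight, where 6.88% of measured genes were higher and 14.2% differed either way. The adjusted p of the 7 ran from 0.103 to 0.764. The smallest two-sided p of an exact permutation test with 2 arrays per group is 0.333. In 5 of the 7 genes both space flight values lay above both ground control values, where 23% of measured genes did, and in 0 of 7 below, where 22.5% did. The median difference over the 7 genes was 0.61, beside 0.03 over all 18193 genes. All 7 genes had ground control means above the dim limit of 6.40, so none of them reached the tested set through its space flight values alone.

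**Figure D1:**
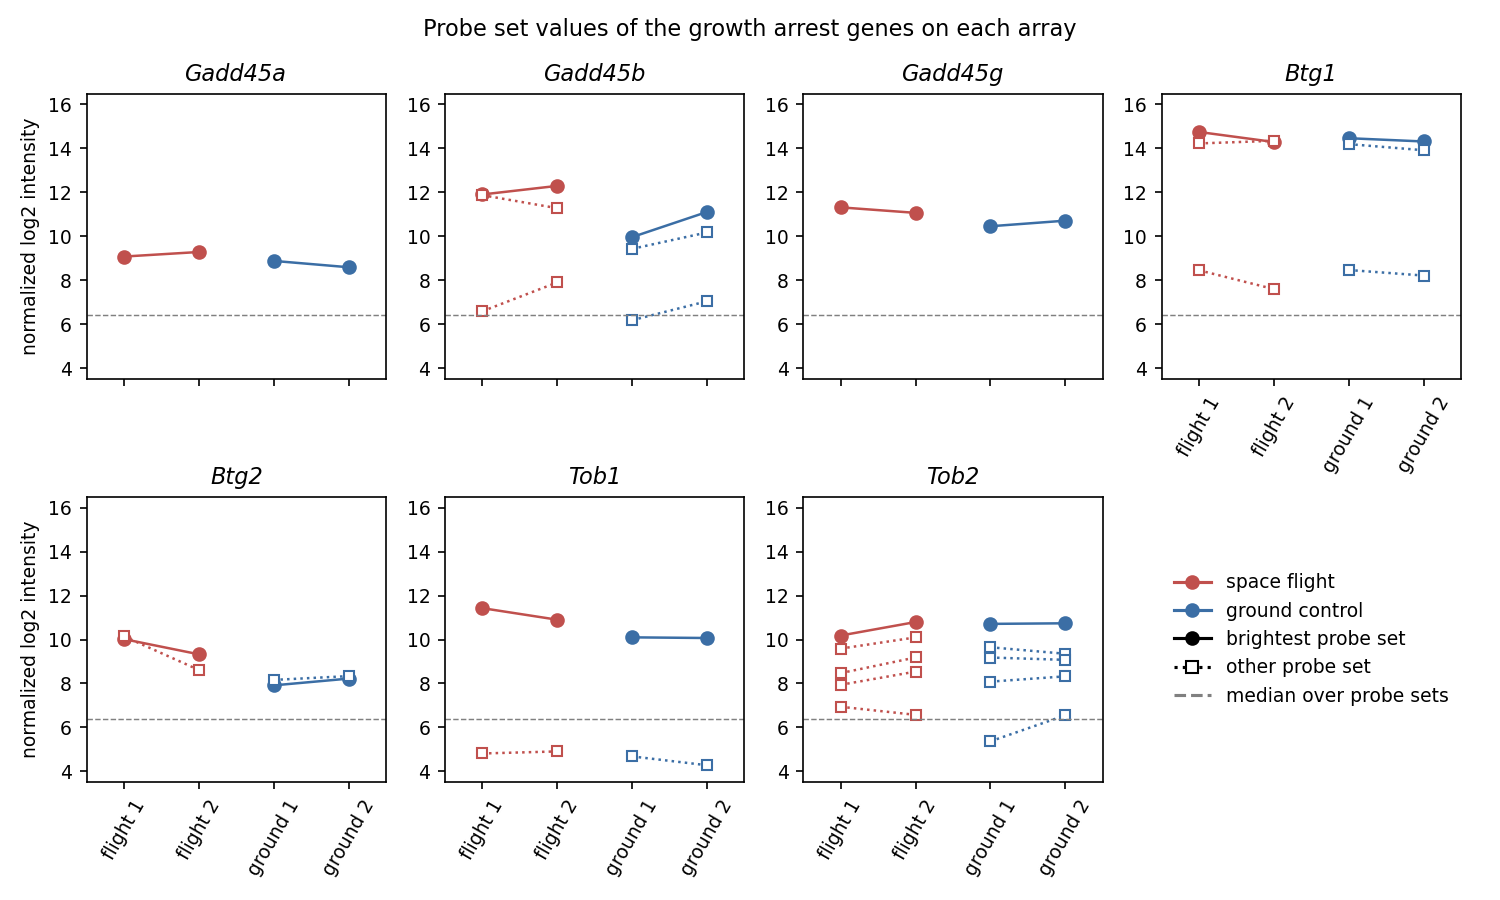
Normalized log2 intensity of each of the 17 probe sets on the 4 arrays, 1 panel per gene, with circles for the brightest probe set of a gene and squares for others; the dashed line is the median over all probe sets, 6.40. Gadd45a, Gadd45b, Gadd45g, Btg2 and Tob1 have space flight circles above both ground control circles, and the Btg1 and Tob2 circles overlap between groups.

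Over the 17 probe sets fitted together with all others, 0 passed at an adjusted p under 0.05, as did 0% of the 45037. An unadjusted p under 0.05 was reached by 6 of them, all higher in space flight, where 4.14% of all probe sets were higher at that level. Space flight values lay above both ground control values for 10 of the 17, where 19.1% of probe sets did, and below for 0, where 19.4% did. Differences were above 0 for 14 probe sets and below 0 for 3, with a median of 0.45 beside 0.0048 over all probe sets. Probe sets of 1 gene share their RNA and are not replicates of each other.

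**Figure D2:**
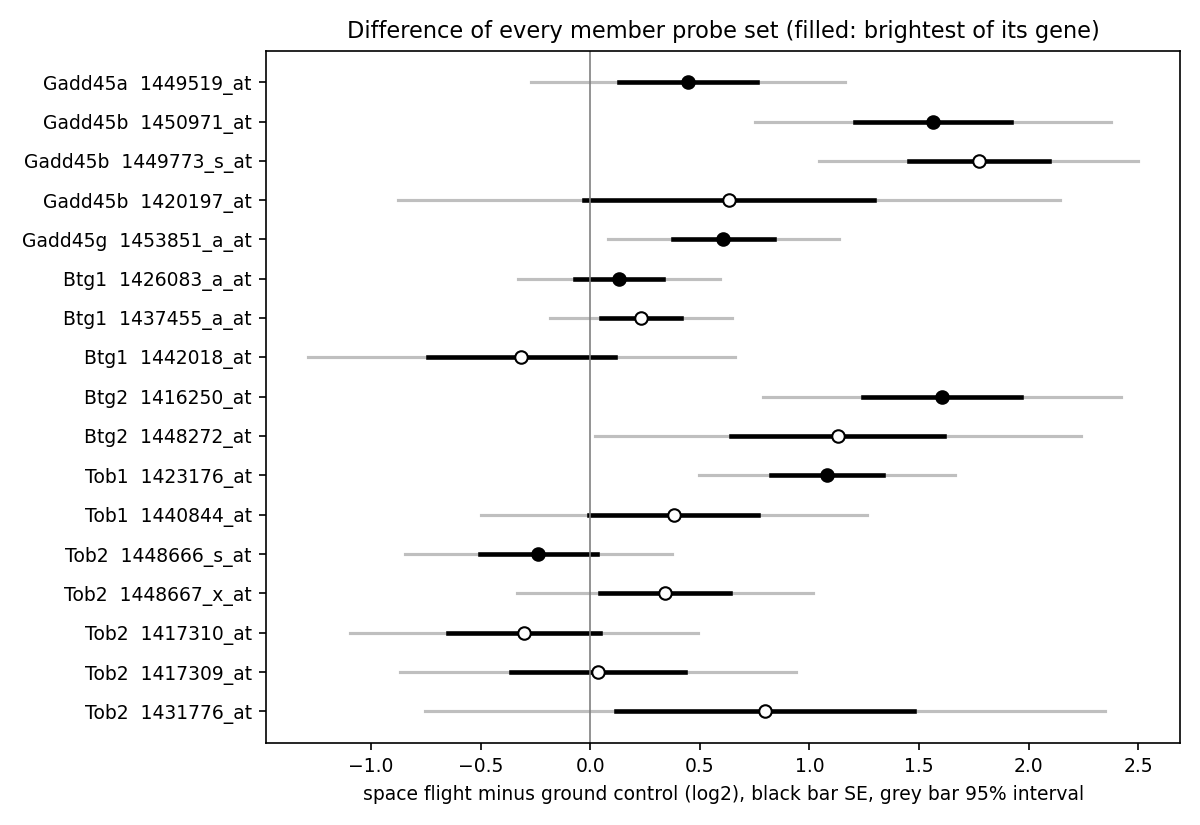
Difference between space flight and ground control of every member probe set on the log2 scale, with black bars for the SE and grey bars for the 95% interval from the fit over 45037 probe sets; filled circles are the brightest probe set of each gene. The 3 largest differences, 1.77, 1.60 and 1.56, are those of Gadd45b and Btg2, and the 5 probe sets of Tob2 lie on both sides of 0.

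Gadd45b, the stress-induced activator of Map3k4 that NF-kB also induces, is measured by 3 probe sets. In arrays 1 and 2 of the space flight group the deposited intensities of the brightest, 1450971_at, were 3834 and 4991, in those of the ground control group 1026 and 2199, and the normalized log2 values were 11.90 and 12.30 against 9.96 and 11.11. Both space flight values were the higher ones, and the ground control pair lay wide apart. Space flight had a mean of 12.10 ± 0.28 and ground control one of 10.54 ± 0.81 (SD, n = 2), a difference of 1.56 ± 0.35 (SE; limma adjusted p = 0.106). Its difference was 0.99 without ground control replicate 1, the lower control, and 2.14 without ground control replicate 2; without space flight replicates 1 and 2 it was 1.76 and 1.37. Fits with 1 array left out assume that a lone array varies like the other group. They had 28.2 to 33.1 moderated degrees of freedom against 10.4 with all arrays, so passing the test in them was not read as a result. Another bright probe set, 1449773_s_at, of a class that transcripts of different genes may share, had 11.87 and 11.28 against 9.43 and 10.18, with a difference of 1.77 ± 0.32 (SE). The dim probe set 1420197_at had 6.59 and 7.90 against 6.18 and 7.04, so its groups overlapped, at 0.63 ± 0.66 (SE).

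Gadd45g and Gadd45a, the other family members, had smaller differences, each on its only probe set. Gadd45g, which cytokines induce, had 11.32 and 11.07 on the space flight arrays and 10.46 and 10.71 on the ground control arrays. The groups did not overlap, with means of 11.19 ± 0.18 and 10.58 ± 0.18 (SD, n = 2), a difference of 0.61 ± 0.26 (SE; limma adjusted p = 0.324). Gadd45a, the classic p53 target of the family, had 9.08 and 9.29 against 8.88 and 8.59. These 2 groups did not overlap either, with means of 9.18 ± 0.15 and 8.74 ± 0.20 (SD, n = 2), a difference of 0.45 ± 0.32 with a 95% interval from −0.25 to 1.15 (SE; limma adjusted p = 0.563). With each array shifted to one median instead, Gadd45g stood at 0.36 and Gadd45a at 0.23; that scaling moved the median of all genes from 0.03 to −0.10, and relative to it they stood at 0.46 and 0.33. Whether the 3 Gadd45 genes differ from each other was not tested.

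Btg2, which p53 and growth factor signals both induce, had the largest difference of the 7 genes. Its probe set 1416250_at had deposited intensities of 1045 and 602 on the space flight arrays and of 230.1 and 271 on those of the ground control, or normalized log2 values of 10.02 and 9.33 against 7.91 and 8.22. Space flight array 1 was the higher of its pair, and both stood more than 1 log2 unit over either control. Means were 9.67 ± 0.49 and 8.07 ± 0.22 (SD, n = 2), with a difference of 1.60 ± 0.35 and a 95% interval from 0.83 to 2.38 (SE; limma adjusted p = 0.103). The other probe set, 1448272_at, had 10.14 and 8.61 against 8.16 and 8.34, so space flight array 2 lay only 0.36 over the ground control mean and array 1 lay 1.89 over it, for a difference of 1.13 ± 0.49 (SE). Leaving out 1 array at a time gave 1.26 to 1.95 for the brightest probe set.

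Btg1, an abundant transcript of resting cells, is the nearest relative of Btg2 among these genes. Its brightest probe set had 14.75 and 14.29 on the space flight arrays and 14.47 and 14.32 on the ground control arrays, so the space flight pair held both the highest and the lowest value. The difference was 0.13 ± 0.17 with a 95% interval from −0.24 to 0.50 (SE; limma adjusted p = 0.764). The next probe set, 1437455_a_at, stood at 0.23 ± 0.18 (SE), and its groups did not overlap, with 14.23 and 14.35 against 14.20 and 13.92. The dimmest one, 1442018_at, was above the dim limit and stood at −0.31 ± 0.43 (SE) with 8.45 and 7.60 against 8.47 and 8.21. The RefSeq table lists 2 more Btg1-like genes, Btg1b and Btg1c, with older names that mark them as copies of Btg1, and the deposited values do not say whether these probe sets tell them apart.

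Tob1, which tethers CCR4-NOT to messenger RNAs through the poly(A)-binding protein Pabpc1, had deposited intensities of 2770.5 and 1811 in space flight and of 1125 and 1049.9 in ground control. In normalized log2 values these were 11.43 and 10.90 against 10.10 and 10.07. The controls had an SD of 0.02, and both space flight values were above them. The difference was 1.08 ± 0.28 with a 95% interval from 0.46 to 1.70 (SE; limma adjusted p = 0.128). With 1 array left out, this difference ranged from 0.82 to 1.34. The other probe set of Tob1, 1440844_at, was below the dim limit on all arrays, at 4.28 to 4.91.

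Tob2, the close paralog of Tob1, had no single direction. Its brightest probe set, 1448666_s_at, had deposited intensities of 1177.1 and 1687.6 in space flight and of 1713.8 and 1689.4 in ground control. Normalized log2 values were 10.18 and 10.80 against 10.71 and 10.74, with space flight array 1 the lowest and array 2 the highest. The difference was −0.24 ± 0.29 with a 95% interval from −0.88 to 0.41 (SE; limma adjusted p = 0.756). The 4 other probe sets stood at 0.34 ± 0.30, −0.30 ± 0.35, 0.04 ± 0.40 and 0.80 ± 0.68 (SE), the last from 1431776_at, whose mean lay below the dim limit. The mean of the 5 probe sets stood at 0.13. Whether Tob1 and Tob2 differ was not tested, and their intervals cover 0.46 to 1.70 and −0.88 to 0.41.

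**Figure D3:**
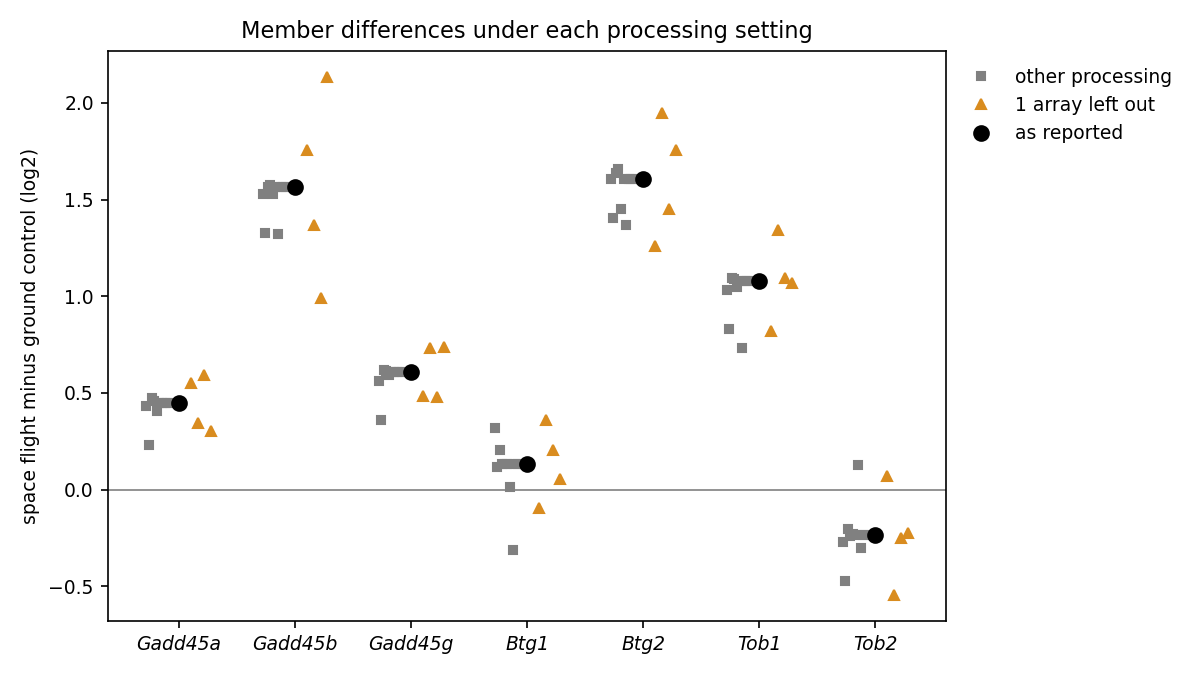
Difference between space flight and ground control of each member gene as reported (black), with 10 other processing settings (grey squares) and with 1 array left out (orange triangles), on the log2 scale. Gadd45b, Btg2 and Tob1 stay above 0 in all of these, between 0.73 and 2.14, and Btg1 and Tob2 have values on both sides of 0.

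The genes that work with Gadd45 lay on both sides of 0. Of 14 listed binding partners and p38 and JNK pathway kinases, 9 were measured and 0 passed limma's test in either direction; 1 had an unadjusted p under 0.05, lower in space flight, where 7.32% of measured genes were lower. Of the 9, 4 had a difference above 0 and 5 below, and their median difference was −0.26 beside 0.02 for all measured genes. The 1 was Mapk14, the p38 alpha kinase, at 10.95 and 11.02 on the space flight arrays against 12.01 and 12.15 on the ground control arrays, a difference of −1.10 ± 0.23 (SE; limma adjusted p = 0.0910). Its other probe sets above the dim limit gave −1.37, −0.67 and 0.38. Map3k4, the kinase that Gadd45 proteins activate, had 9.38 and 9.39 against 9.97 and 9.81, a difference of −0.50 ± 0.29 (SE; limma adjusted p = 0.461), with −1.10 and −0.53 on its other probe sets above the limit. At the upper end stood Gadd45gip1, a mitochondrial ribosome protein that binds Gadd45 proteins, at 0.42 ± 0.33, and Map2k3, a kinase for p38, at 0.20 ± 0.28 (SE), with −0.17 on another probe set of Map2k3. The replication clamp Pcna stood at 0.08 ± 0.18 (SE).

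Of 16 genes for CCR4-NOT and poly(A) binding, 15 were measured, and the same test passed 0 in either direction. At an unadjusted p under 0.05, 2 were higher and 3 lower, where 6.88% and 7.32% of measured genes were. The median was 0.22. The deadenylase subunits that Btg and Tob proteins bind, Cnot7 and Cnot8, had space flight values above both controls on their brightest probe sets, at 0.28 ± 0.22 and 0.34 ± 0.27 (SE; limma adjusted p = 0.604 and 0.606), and other probe sets gave 0.04 and 0.51 for Cnot7 and −0.02 for Cnot8. The other deadenylase pair, Cnot6 and Cnot6l, stood at −0.92 ± 0.25 and −0.79 ± 0.24 (SE; limma adjusted p = 0.135 and 0.171). Cnot6l was below 0 on its 3 other probe sets too, from −0.60 to −0.39, and Cnot6 gave 0.19, 0.01 and −0.33. Pabpc1, through which Tob1 reaches messenger RNAs, stood at −0.49 ± 0.12 (SE; limma adjusted p = 0.115), with 1.04 on its dimmer probe set. Highest were Cnot3 at 1.03 ± 0.31, with −0.22 on another probe set, and the ubiquitin ligase Cnot4 at 0.73 ± 0.28 (SE), with −0.37 to 0.05 on its 4 others.

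Among p53 and its stress targets, 13 of 16 listed genes were measured and 0 passed limma's test. Trp53, the gene of p53 itself, and Bax had no single-gene probe set and were not analysed. At an unadjusted p under 0.05, 4 were higher and 0 lower, where 6.88% and 7.32% of measured genes were. The median was 0.49. Cdkn1a, the cell cycle inhibitor that Gadd45 proteins bind, had 14.20 and 13.73 against 12.32 and 12.86, a difference of 1.37 ± 0.23 (SE; limma adjusted p = 0.0568). The cell death genes Bbc3 and Pmaip1 were highest of the list, at 2.39 ± 0.36 and 1.89 ± 0.52 (SE), and the death receptor Fas and the cyclin Ccng1 lowest, at −0.41 ± 0.49 and −0.26 ± 0.19 (SE), with 0.13 and 0.50 on the dimmer probe sets of Ccng1. Of the 13, 9 had a difference above 0.

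Btg2 and Gadd45b also belong to the genes that a stimulus switches on at once, with no new protein needed (immediate early genes). Of 19 others, 17 were measured and 0 passed limma's test. At an unadjusted p under 0.05, 7 were higher and 0 lower, where 6.88% and 7.32% of measured genes were. In 12 both space flight values lay above both controls and in 2 below, where 23% and 22.5% of measured genes did. The median was 0.70. Nr4a1, an orphan nuclear receptor, stood at 2.33 ± 0.48, from 6.13 in ground control, which is under the dim limit, and Egr1, a zinc finger factor, at 1.33 ± 0.38 (SE). Fos and Egr2 stood at −0.57 ± 0.27 and −0.49 ± 0.30 (SE).

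Cell cycle genes had list medians above 0. Of 10 G1 cyclins and kinases, all measured, 0 passed limma's test, and the median was 0.32. At an unadjusted p under 0.05, 1 was higher and 0 lower, where 6.88% and 7.32% of measured genes were. Ccne2 and Ccne1, the cyclins of S phase entry, stood at 1.12 ± 0.38 and 0.63 ± 0.36, and Rb1 and Cdk2 at −0.19 ± 0.25 and −0.01 ± 0.37 (SE). Of 12 proliferation genes, 7 were measured and 0 passed, with a median of 0.70. Against the same shares of all measured genes, 2 were higher and 0 lower at an unadjusted p under 0.05. The highest were Rrm2, a subunit of ribonucleotide reductase, at 1.52 ± 0.42 and the mitotic activator Cdc20 at 1.29 ± 0.36 (SE), with −0.47 on another probe set of Cdc20, and Ccnb2 stood at −0.15 ± 0.49 (SE).

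**Figure D4:**
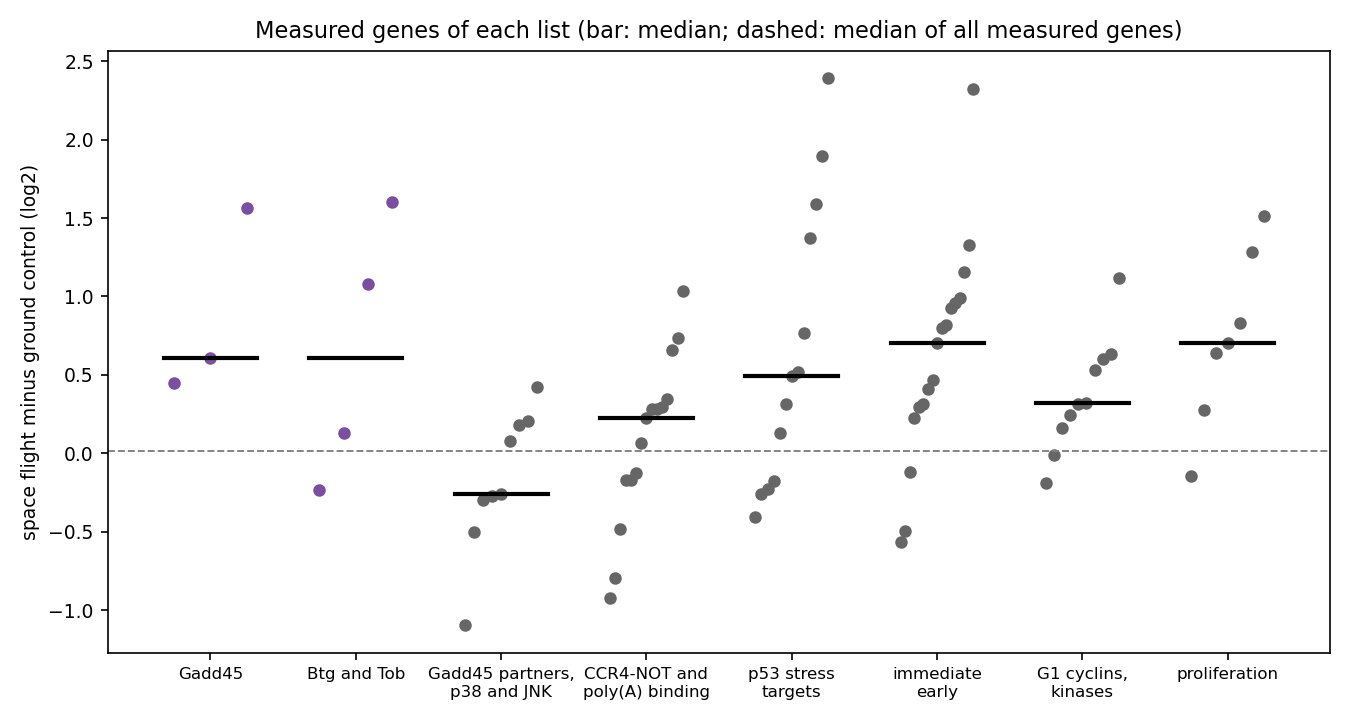
Difference between space flight and ground control on the log2 scale for each measured gene of the 2 families (purple) and of 6 lists of related genes (grey), with bars for list medians and a dashed line for the median of all measured genes, 0.02. The Gadd45 and Btg and Tob medians are both 0.61, and the list of Gadd45 partners with p38 and JNK kinases is the one with a median below 0, at −0.26.

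Summed levels of neutrophil, erythroid, macrophage, B cell and eosinophil markers did not overlap between the groups, and those of the other marker lists did. Single measured genes also often did not overlap, 23% of them higher and 22.5% lower in space flight. In bulk RNA fewer cells of a type and less RNA per cell cannot be told apart. Neutrophil markers had a summed normalized intensity of 85862 and 113680 in space flight against 49331 and 51580 in ground control over 10 genes of 12 listed. Of the 10, 9 were above 0 and 2 passed limma's test, where 0.0628% of measured genes did. In the same test 9 were higher and 1 lower at an unadjusted p under 0.05, where 6.88% and 7.32% of measured genes were. The brightest were S100a8 at 0.79 and S100a9 at 1.36, and Mmp8 was below 0, at −0.64. Erythroid markers summed to 6437 and 12138 against 1605 and 3252 over 7 genes of 10, with 5 of the 6 measured above 0 and Epor at −0.34. Of the 6, 4 were higher and 0 lower at that unadjusted level. Most of that sum was Slc4a1, with normalized log2 values of 12.42 and 13.39 against 10.05 and 11.43, a difference of 2.17, with 0.88 on another probe set above the dim limit; the next brightest, Alas2, stood at 1.23. Macrophage markers summed to 115290 and 107180 against 131310 and 134720 over 10 of 10, with 6 of the 10 below 0. At the same unadjusted level 5 of these 10 were lower and 0 higher. Msr1 counted as above 0 at 0.0007, with −0.99, −1.08 and −0.55 on its other probe sets above the dim limit. Differences of the macrophage markers ran from −1.47 for Mrc1 to 1.02 for Fcgr1, which had a ground control mean of 6.07, under the dim limit. No marker was listed at 0. B cell markers summed to 783 and 575 against 363 and 488 over 7 of 8 genes, and 2 of the 7 were measured. Eosinophil markers summed to 173 and 120 against 195 and 304 over 3 of 4 genes. Of the markers of mast cells, eosinophils, dendritic cells, megakaryocytes and stromal cells, 2 of 6, 1 of 4, 1 of 6, 5 of 6 and 5 of 7 were measured, and 0 passed limma's test. At an unadjusted p under 0.05, 3 were higher and 1 lower, where 6.88% and 7.32% of measured genes were. The part of these cells in the differences of Btg2, Gadd45b and Tob1 was not tested.

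Genes with the 4 array values nearest to those of Gadd45b and Btg2, each centred on its own mean, were found by Euclidean distance among 11140 other measured genes. Nearest to Btg2 were Ddit4, a stress-induced inhibitor of the growth kinase complex mTORC1, at a distance of 0.14, the chaperone gene Hspa1a at 0.22 and the RNA host gene Snhg1 at 0.23, and 32 genes lay within 0.5. Ddit4 had 11.33 and 10.47 on the space flight arrays against 9.17 and 9.39 on the ground control arrays. Nearest to Gadd45b were the complement gene C1qb at 0.28, the cytokine signalling inhibitor Socs3 at 0.31 and Eps8l2 at 0.31, and 22 genes lay within 0.5. With 4 arrays such nearness says only that the values rise and fall on the same arrays.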

How the data were processed

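Bone marrow cultures were measured on 4 Affymetrix mouse arrays, 2 per group. The deposited table holds 1 linear intensity per probe set; GCOS is named in the submitters' processing notes, with its version, summarising algorithm and genome build not given in the sources used here. The deposited values have a 2% trimmed mean of 500.004 on every array. Array medians differed by 0.385 on the log2 scale, so log2(intensity + 16) was quantile normalized over the 45037 non-control probe sets in R 4.3.3. Of these, 34945 had 1 gene symbol, 932 several and 9160 were unnamed here. Each gene was represented by its brightest probe set, and the 11141 genes with a mean of at least 6.40 were tested with limma 3.58.1 (intensity trend, two-sided, Benjamini-Hochberg over all genes, threshold 0.05), with 2 residual and 10.4 moderated degrees of freedom. A second fit covered all probe sets without a filter. The procedure was tested on simulated data. Depth has no meaning for arrays; their number limits the precision. Members, lists and motifs were chosen with earlier results of these data known, and no set test was made. All 8 members were to be named; of each pathway list the 2 measured genes with the largest positive and largest negative differences and the partners Map3k4, Cnot7, Cnot8, Pcna and Cdkn1a were named, and of marker lists the 2 brightest. Trp53 was also to be named but had no single-gene probe set. Pabpc1, Epor, Mmp8, Mrc1, Fcgr1 and Msr1 were named after their values were seen. Promoters matched RefSeq for all 7 genes. Alternatives covered scaling, pseudocount, filter, probe set choice, trend, the replicate number as a block and each array left out.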

Additional observations from a re-analysis of the deposited data

How the results depend on the processing

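Across 14 alternatives, 94 of 98 differences of the 7 member genes kept their sign. The 4 that turned were Btg1 at −0.31 with probe sets without a suffix letter preferred and −0.10 without space flight replicate 1 (range −0.10 to 0.36 with 1 array left out), and Tob2 at 0.13 with the mean of all probe sets and 0.07 without space flight replicate 1 (0.0707; range −0.54 to 0.0707). The cause was not tested. Of all measured genes, 16 were called with values as deposited, 0 with each array shifted to one median, 21 with cyclic loess, 12 with a pseudocount of 64, 0 without a level filter, 0 with the mean of probe sets and 0 without an intensity trend, against 7 as reported; with 1 array left out 7 to 1080 were called, and 0 to 3 member genes. In none of those settings with all 4 arrays and no block was a member gene called. Same-numbered arrays deviated together with a correlation of 0.057 over measured genes. With 1 replicate difference per group, this cannot show whether same-numbered arrays were handled together. With the replicate number as a block (replicate block), 433 of 11141 measured genes and 3 member genes (Gadd45b, Btg2 and Tob1) were called. In the fit over all probe sets 2 member probe sets were called, and the count over all probe sets is not given here. The block fit had 28.3 moderated degrees of freedom against 10.4 as reported, so passing the test in it was not read as a result. The number of arrays limits the precision, and the dim probe sets of Gadd45b, Tob1 and Tob2 near or under 6.40 carry little signal over background.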
